A study of Mus musculus with 12 samples.

Results

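Hp, Hpx, Cp and Lcn2 encode secreted plasma proteins that bind haemoglobin, haem, copper and iron-carrying siderophores. These 4 genes were taken from a table of 51609 gene rows by matching each Ensembl identifier to its GENCODE vM1 gene name, and each of the 4 was among the 17652 genes that passed the filter on low counts. They were described across 12 mouse liver RNA-seq libraries in 4 groups of 3 mice. Untreated wild-type mice, wild-type mice given 2% dextran sodium sulfate (DSS) in drinking water for 6 days, untreated mice labelled RelaΔhepStat3Δhep and DSS-treated mice labelled RelaΔhepStat3Δhep made up the groups. DSS injures the colon lining and is used to model acute colitis. All mice were on a C57BL/6 background and, per the study's methods, 5 to 7 weeks old and of either sex. Per the study, Cre recombinase under the albumin promoter deletes Rela and Stat3 in hepatocytes of the labelled mutants. By this design other liver cells are meant to keep both genes, which was not checked here. The wild-type mice are Cre-negative littermates that carry the floxed alleles.

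Rela encodes the p65 subunit of the transcription factor NF-kB, and Stat3 encodes a transcription factor that acts downstream of IL-6. Haptoglobin (Hp) captures haemoglobin released from red blood cells and delivers it to the macrophage receptor CD163. Haemopexin (Hpx) binds free haem and carries it to the receptor LRP1 on hepatocytes. Ceruloplasmin (Cp) holds most of the copper in plasma, and its ferroxidase activity oxidizes iron so that transferrin can load it. Lipocalin-2 (Lcn2) binds bacterial siderophores and so withholds iron from bacteria. It is made by hepatocytes in an acute-phase response and is also stored in neutrophil granules. In rodents these proteins are acute-phase reactants, which the liver makes in larger amounts after IL-1 and IL-6 signals.

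In mm9 coordinates of GENCODE vM1, Hp (ENSMUSG00000031722) is a protein-coding gene of 5 merged exons on the minus strand at chr8:112099030-112103072. Hpx (ENSMUSG00000030895) has 10 merged exons on the minus strand at chr7:112740127-112748630. Lcn2 (ENSMUSG00000026822) has 3 merged exons on the minus strand at chr2:32240153-32243317. Cp (ENSMUSG00000003617) has 22 merged exons on the plus strand at chr3:19857054-19909145. Its exons share 108 bp with exons of Hps3 on the opposite strand, which is a small part of the 9566 bp of merged Cp exons. Whether the counting used strand is not given in the sources used here, so reads from that stretch could belong to either gene. Hp, Hpx and Lcn2 overlap no other gene of that annotation.

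Windows of 250 bases before annotated gene starts are shown because Rela and Stat3 are the factors deleted in the mutants. The windows come from RefSeq on GRCm38.p6, which is another build than the gene coordinates above, and are printed 5′ to 3′ on the strand of the gene. Capitals mark matches, on either strand, to a C/EBP motif (TTGCNNAA), an NF-kB motif (GGG and CC with any 5 bases between them) or the letters CTGGGA of the type 2 IL-6 response element. The window of Lcn2 (chr2:32387740-32387989, minus strand) and that of Hpx (chr7:105600117-105600366, minus strand) were single, and Cp had windows for a pair of starts (chr3:19956804-19957053 and chr3:19956999-19957248, plus strand). No window is shown for Hp.
Lcn2: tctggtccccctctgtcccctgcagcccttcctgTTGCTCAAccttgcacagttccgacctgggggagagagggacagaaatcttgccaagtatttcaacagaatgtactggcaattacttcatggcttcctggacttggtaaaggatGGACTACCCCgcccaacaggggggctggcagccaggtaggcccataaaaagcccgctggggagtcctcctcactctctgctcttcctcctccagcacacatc
Hpx: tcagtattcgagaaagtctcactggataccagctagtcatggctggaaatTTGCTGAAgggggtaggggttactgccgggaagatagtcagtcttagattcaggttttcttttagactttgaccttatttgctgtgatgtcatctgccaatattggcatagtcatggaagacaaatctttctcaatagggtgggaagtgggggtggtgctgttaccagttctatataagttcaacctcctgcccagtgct
Cp, first start: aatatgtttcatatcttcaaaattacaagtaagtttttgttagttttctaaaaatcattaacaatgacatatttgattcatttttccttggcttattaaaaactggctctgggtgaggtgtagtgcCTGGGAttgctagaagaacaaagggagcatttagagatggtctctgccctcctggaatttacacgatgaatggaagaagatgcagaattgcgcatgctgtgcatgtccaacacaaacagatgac
Cp, second start: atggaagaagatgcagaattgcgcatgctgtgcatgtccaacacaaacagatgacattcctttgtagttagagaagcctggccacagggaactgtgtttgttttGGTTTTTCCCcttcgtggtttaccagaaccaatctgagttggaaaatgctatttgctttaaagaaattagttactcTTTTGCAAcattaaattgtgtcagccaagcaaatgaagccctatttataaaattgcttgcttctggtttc

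The Lcn2 window held a C/EBP match 216 to 209 bases before the start and an NF-kB match, on the opposite strand, 102 to 93 bases before it. In the Hpx window a C/EBP match lay 200 to 193 bases before the start. The first Cp window held CTGGGA 124 to 119 bases before its start, and the second held an NF-kB match at 146 to 137 and a C/EBP match at 70 to 63, both on the opposite strand. No match overlapped another. None of these windows held the STAT motif TTCNNNGAA. Of all 32851 windows of this length, 9.56% held the C/EBP letters, 45.8% the NF-kB letters, 27.0% CTGGGA and 7.02% the STAT letters. A match of letters describes the window and is not evidence of binding.

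The libraries held between 65879529 and 82850098 estimated counts each, and levels are given as CPM, which scales counts by the TMM-adjusted library size. Counts over the whole Rela gene were between 39.5 and 62.3 CPM in all 12 livers and were not lower in the labelled mutants, and Stat3 was between 43.0 and 74.8 CPM in the labelled mutants against 45.7 to 330 CPM in wild-type livers. Deleted exons were not examined, so these gene counts do not check the deletions. Xist was at 903 to 1283 CPM in the 3 DSS-treated livers labelled RelaΔhepStat3Δhep and at 1143 CPM in replicate 3 of untreated wild-type, against 0.191 to 29.0 CPM in the other 8 livers. In comparisons with the DSS-treated group labelled RelaΔhepStat3Δhep, sex therefore cannot be told apart from treatment in that genotype or from genotype under DSS, except through that 1 wild-type liver. The Y-linked gene Ddx3y was at 0 to 7 counts in the DSS-treated livers labelled RelaΔhepStat3Δhep and at 948 counts (14.3 CPM) in that wild-type liver, against 89.4 to 125 CPM in the other 8, so its sex-linked transcripts were mixed. Hepatocyte markers (9 genes) summed to 92309 to 175109 CPM and had no gene at 0 in any library. The 2 lowest sums, 92309 and 95208 CPM, were in DSS-treated wild-type livers. Replicate 2 of DSS-treated wild-type stood apart in the members' levels and had the lowest TMM factor (0.758).

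In wild-type mice, the question was how far these transcripts moved in the liver during colitis. The level of each member was higher on average after DSS, most of all for Lcn2, but the 3 treated livers differed widely from each other. Hp was at 1338, 2090 and 1151 CPM in the untreated livers and at 1653, 35610 and 8323 CPM in DSS replicates 1, 2 and 3. DSS replicate 1 therefore lay within the untreated range, whereas replicates 2 and 3 lay above it. Hpx was at 3492, 5550 and 3521 CPM without DSS and at 4342, 63830 and 12413 CPM with it. Its pattern followed that of Hp, with replicate 1 again inside the untreated range. Cp was at 1362, 1378 and 1316 CPM in the untreated livers, a mean of 1352 ± 32.2 CPM (SD, n = 3), and at 1863, 6777 and 2809 CPM after DSS. Here the groups did not overlap, and the lowest treated liver exceeded the highest untreated one. Lcn2 was at 4.66, 3.29 and 13.6 CPM without DSS and at 14.2, 5730 and 196 CPM with it. These groups did not overlap either, but replicate 1 was only just above the highest untreated liver.

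**Figure D1:**
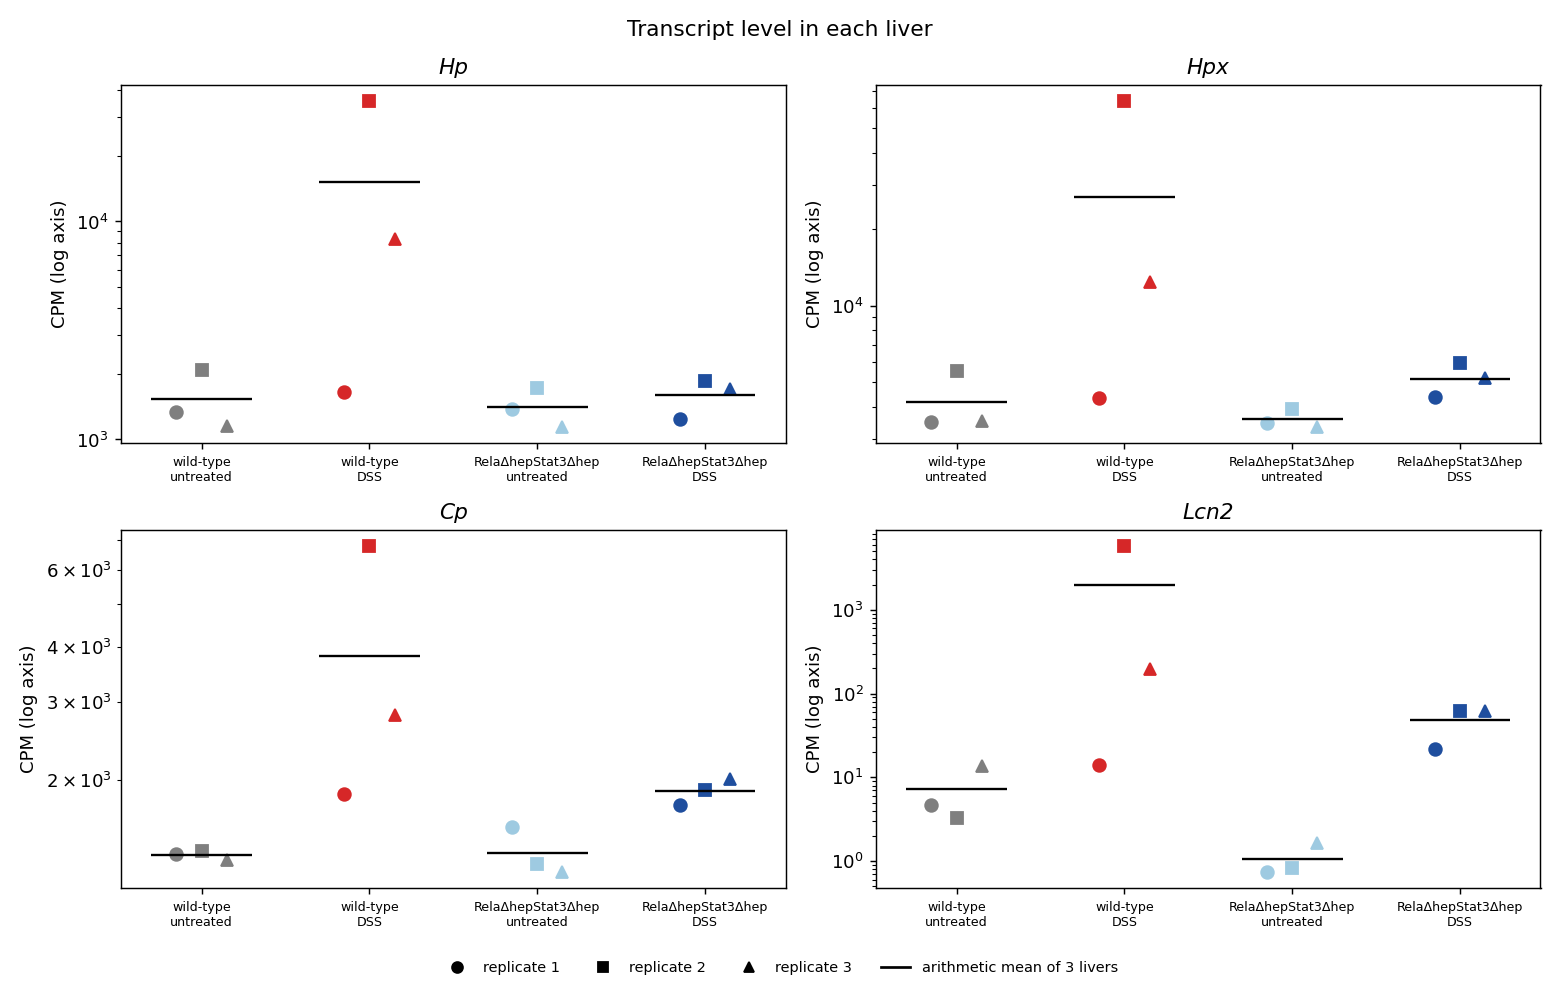
Level of Hp, Hpx, Cp and Lcn2 in each liver, in CPM on a log axis, for the 4 groups of 3 mice. Symbols give the replicate number and bars the arithmetic mean. In the DSS-treated wild-type group replicate 2 is the highest liver for each gene and replicate 1 the lowest, and the Lcn2 levels of DSS-treated livers labelled RelaΔhepStat3Δhep (21.8 to 61.8 CPM) lie above both untreated groups.

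Relative to the mean of the untreated wild-type livers, DSS replicate 2 held 797 times as much Lcn2, 23.3 times as much Hp, 15.2 times as much Hpx and 5.01 times as much Cp. In replicate 3 the same ratios were 27.3 for Lcn2, 5.45 for Hp, 2.96 for Hpx and 2.08 for Cp. The order of the genes was the same in both livers. Replicate 1 had ratios of 1.97 for Lcn2, 1.38 for Cp, 1.08 for Hp and 1.04 for Hpx. Together the 4 genes took 8.49% of all counts in DSS replicate 2 and 2.40% in replicate 3, against 0.599% to 1.08% in the other 10 livers.

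**Figure D2:**
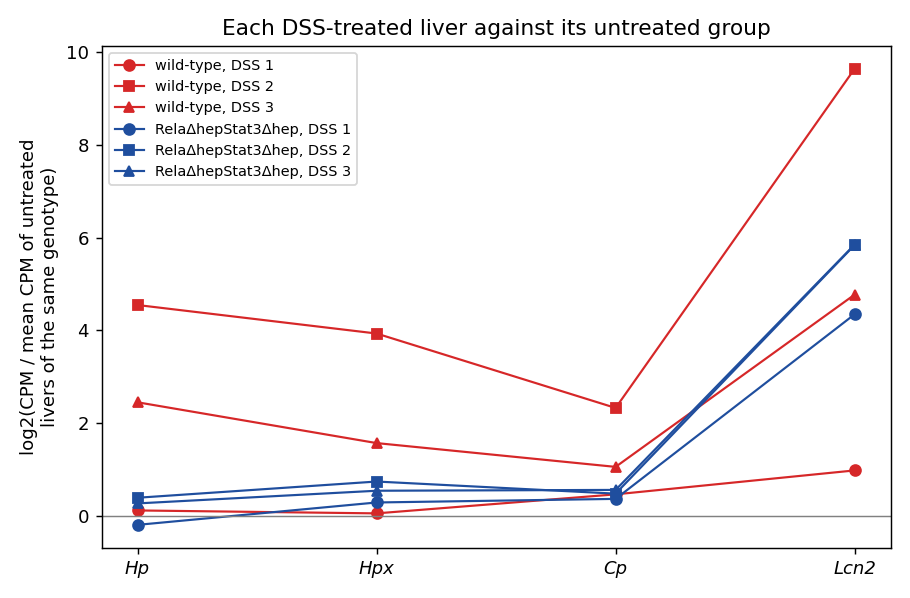
Level of each gene in each DSS-treated liver, as log2 of its CPM over the mean CPM of the untreated livers of the same genotype. Each line joins the 4 genes of 1 liver. The wild-type livers (red) are spread widely for each gene, with Lcn2 ratios of 1.97, 27.3 and 797 before the log2 is taken, whereas those labelled RelaΔhepStat3Δhep (blue) lie close together for Hp, Hpx and Cp.

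By edgeR's quasi-likelihood test with Benjamini-Hochberg adjustment over all genes tested, 0 of the 4 members passed an adjusted p of 0.05 for DSS against untreated in wild-type, where 0.685% of all genes tested passed. The log2 fold change of Hp was 3.32 (SE 0.83, adjusted p = 0.0999). It was 2.68 for Hpx (SE 0.73, adjusted p = 0.121) and 1.50 for Cp (SE 0.36, adjusted p = 0.0804). Lcn2 had the largest, 8.11, with the widest error (SE 2.06, adjusted p = 0.119). Unadjusted p-values were under 0.05 for 4 of 4 members, against 14.5% of all genes. The groups did not overlap for 2 of 4, against 9.49% of all genes on the higher side. After adjustment 4 of 4 passed the DESeq2 Wald test and 0 of 4 limma-voom. The share of all genes passing by DESeq2 or limma-voom is not given here, so these counts cannot be set against it. The median log2 fold change of all genes tested was 0.02. An exact permutation test of 3 livers against 3 cannot give a p under 0.1, which Cp and Lcn2 reached, and gave 0.2 for Hp and Hpx. In bulk liver, fewer cells of a type and less RNA per cell cannot be told apart.

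DSS replicate 1 and DSS replicate 2 each decided these values. Without replicate 1, each member passed the edgeR test. Log2 fold changes were 3.85 for Hp (adjusted p = 0.00671), 3.19 for Hpx (0.0119), 1.82 for Cp (0.0120) and 8.69 for Lcn2 (0.0344). That fit called 209 genes in this comparison, against 121 with every library. Without replicate 2, the log2 fold changes were 1.70 for Hp, 0.99 for Hpx, 0.78 for Cp and 3.86 for Lcn2, and none passed. By limma-voom with sample weights, which gave replicate 2 the lowest weight of the 12 libraries (0.416), they were 1.88 for Hp, 1.40 for Hpx, 1.02 for Cp and 4.53 for Lcn2.

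In mice labelled RelaΔhepStat3Δhep, Hp, Hpx and Cp after DSS were within 1.67 times their mean untreated levels in each liver, and Lcn2 was well above its own. Hp was at 1376, 1728 and 1141 CPM without DSS and at 1236, 1853 and 1702 CPM with it, so the groups overlapped. Hpx was at 3445, 3941 and 3335 CPM in the untreated livers and at 4361, 5963 and 5197 CPM in the treated ones. Cp was at 1567, 1290 and 1238 CPM without DSS and at 1757, 1900 and 2009 CPM with it. For Hpx and Cp the treated livers lay above the untreated ones without overlap, by a small margin. Lcn2 was at 0.744, 0.842 and 1.63 CPM in untreated livers, which is 56, 61 and 121 estimated counts, and at 21.8, 61.4 and 61.8 CPM after DSS. The treated livers held 20.3, 57.2 and 57.6 times the untreated mean of Lcn2. In contrast, the same ratios ran from 0.873 to 1.31 for Hp, from 1.22 to 1.67 for Hpx and from 1.29 to 1.47 for Cp.

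No member passed the edgeR test in this comparison, in which 7.02% of all genes tested did, and 1 of 4, Lcn2, had an unadjusted p under 0.05 (24.1% of all genes). Lcn2 also passed the DESeq2 Wald test, for which the share of all genes is not given here. Lcn2 had a log2 fold change of 5.49 (SE 1.86, 95% confidence interval 1.28 to 9.70, adjusted p = 0.113). It passed when the fit held only these 6 livers (5.47, adjusted p = 0.00348) and was 3.72 with sex read from Xist as a covariate (adjusted p = 0.710). The log2 fold change was 0.17 for Hp (SE 0.76, adjusted p = 0.920), 0.53 for Hpx (SE 0.69, adjusted p = 0.689) and 0.47 for Cp (SE 0.35, adjusted p = 0.456). With the sex covariate these were 0.75 for Hp, 0.89 for Hpx and 0.53 for Cp, and none passed. The confidence interval for Hp without that covariate, -1.51 to 1.86, spans changes in either direction. The groups did not overlap, on the higher side, for 3 of 4 members, against 17.8% of all genes tested.

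**Figure D3:**
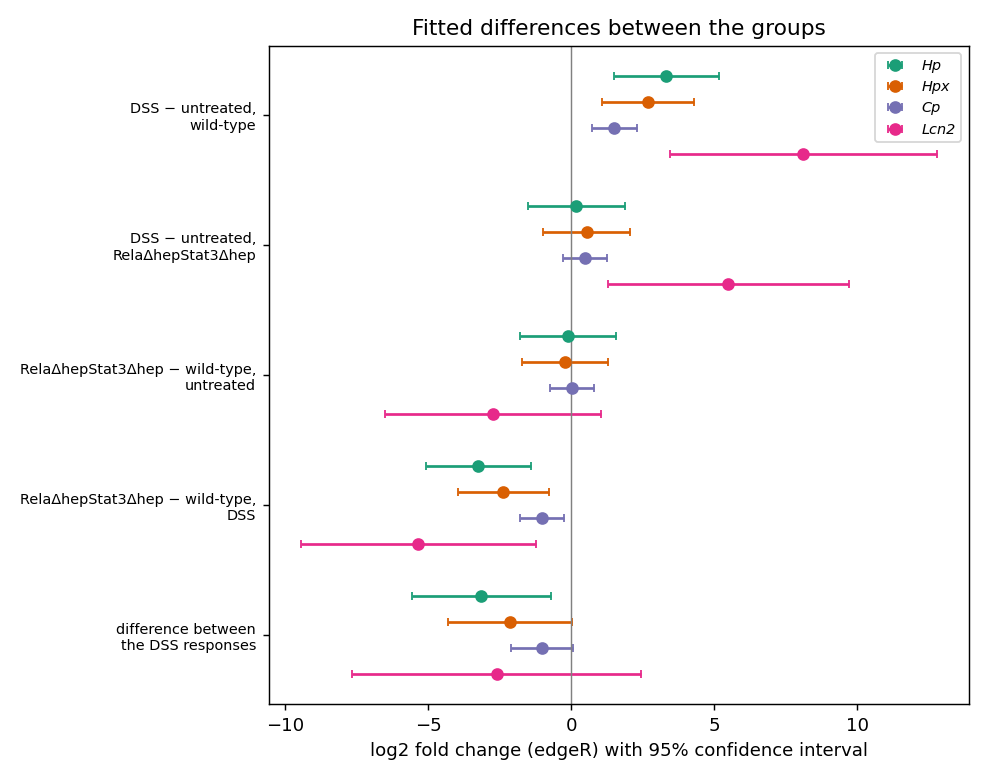
Fitted log2 fold change of each gene in the 5 comparisons, with 95% confidence intervals from edgeR. The last row is the interaction. Intervals are widest for Lcn2, and those for Hp, Hpx and Cp cross 0 in the labelled mutants after DSS and between the untreated genotypes.

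Between the untreated genotypes, Hp, Hpx and Cp had closely similar levels, and Lcn2 was lower in the mice labelled RelaΔhepStat3Δhep. The highest of those 3 livers held 1.63 CPM of Lcn2 and the lowest untreated wild-type liver 3.29 CPM, so these groups did not overlap. The summed level of neutrophil markers was also lower there. The log2 difference of Lcn2 was -2.74 (SE 1.67, edgeR adjusted p = 0.561). The log2 difference was -0.11 for Hp (SE 0.76), -0.23 for Hpx (SE 0.69) and 0.01 for Cp (SE 0.35), with adjusted p-values of 0.970, 0.929 and 0.993. Intervals of -1.79 to 1.57 for Hp, -1.74 to 1.28 for Hpx and -0.75 to 0.78 for Cp bound these differences. Thus 0 of 4 members passed, or had an unadjusted p under 0.05, by edgeR, against 0.0623% and 11.7% of all genes tested, and 1 of 4 did not overlap on the lower side, against 10.7% of all genes.

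With DSS, each member had a lower mean in the mice labelled RelaΔhepStat3Δhep than in wild-type mice, but the groups overlapped for each, whereas 7.98% of all genes were lower without overlap. Wild-type replicate 1 lay among or below the labelled mutants for each gene. That liver held less Lcn2 (14.2 CPM) than any of the 3 treated livers labelled RelaΔhepStat3Δhep, and its Hpx (4342 CPM) was just under their lowest value (4361 CPM). The log2 difference was -3.25 for Hp (SE 0.83, edgeR adjusted p = 0.131) and -2.38 for Hpx (SE 0.72, adjusted p = 0.192). For Cp it was -1.01 (SE 0.36, adjusted p = 0.235), and for Lcn2 it was -5.36 (SE 1.81, adjusted p = 0.245). None of the 4 passed, against 0.334% of all genes tested. All 4 had an unadjusted p under 0.05 by edgeR, which 7.08% of all genes had in the lower direction. Hp, Hpx and Lcn2 passed the DESeq2 Wald test, for which the share of all genes is not given here. Without wild-type DSS replicate 1, Hp (-3.78, adjusted p = 0.00452), Hpx (-2.88, 0.0162) and Cp (-1.34, 0.0388) passed. That fit called 392 genes in this comparison, against 59 with every library. Without replicate 2, the differences were -1.64 for Hp, -0.69 for Hpx, -0.31 for Cp and -1.11 for Lcn2, and by limma-voom they were -1.77, -1.04, -0.52 and -1.29 in the same order, with none passing. With sex read from Xist as a covariate, no member passed, standard errors were 1.57 to 1.85 times as large, and the Lcn2 difference lay farther from 0.

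The interaction compares the DSS responses, with the wild-type response subtracted from that of the labelled mutants on the log2 scale. It was -3.14 for Hp (SE 1.10, edgeR adjusted p = 0.210), -2.15 for Hpx (SE 0.99, adjusted p = 0.309) and -1.03 for Cp (SE 0.50, adjusted p = 0.329). For Lcn2 it was -2.62 with an interval of -7.66 to 2.43 (adjusted p = 0.590), so its sign was not fixed by these data. No member passed by edgeR, DESeq2 or limma-voom, against 0.408% of all genes tested in edgeR, and 1 of 4, Hp, had an unadjusted p under 0.05, against 16.3% of all genes. The interaction of Hp passed without wild-type DSS replicate 1 (-3.67, adjusted p = 0.0283). That fit called 220 genes for the interaction, against 72 with every library. The Lcn2 interaction turned to 1.62 without replicate 2. Without that replicate the interaction was -1.54 for Hp, -0.47 for Hpx and -0.33 for Cp. By limma-voom the interaction was -1.74 for Hp, -0.88 for Hpx, -0.54 for Cp and 1.19 for Lcn2. With the sex covariate that of Lcn2 was -5.24 (adjusted p = 0.809).

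Ordered by group mean, DSS-treated wild-type came first for each member and DSS-treated RelaΔhepStat3Δhep second. For Hp and Hpx every neighbour in that order overlapped the next. For Cp only the step from the DSS-treated to the untreated livers labelled RelaΔhepStat3Δhep was free of overlap, and the untreated means of 1365 ± 177 and 1352 ± 32.2 CPM (SD, n = 3) were close. Lcn2 was the member in which the lower 3 groups were separate, at 48.4 ± 23.0 CPM in DSS-treated RelaΔhepStat3Δhep, 7.19 ± 5.60 CPM in untreated wild-type and 1.07 ± 0.488 CPM in untreated RelaΔhepStat3Δhep (SD, n = 3).

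Per kilobase of the longest coding transcript, the level of Hpx exceeded that of Hp in each of the 12 livers. The ratio of Hpx to Hp was 2.37, 2.41 and 2.78 in untreated wild-type livers and 2.27, 2.07 and 2.66 in untreated livers labelled RelaΔhepStat3Δhep. After DSS it was 2.39, 1.63 and 1.36 in wild-type and 3.21, 2.92 and 2.77 in the labelled mutants. The labelled mutants after DSS therefore lay above their untreated group and above DSS-treated wild-type without overlap, each with an exact permutation p of 0.1 (two-sided, n = 3 and 3), the smallest this design allows. Adjusted over 24 tests of ratios between members, both were 0.300. In both, the labelled mutants after DSS had high and the other group low Xist, so sex cannot be told apart. Ratios of Hp, Hpx and Cp to Lcn2 were lower after DSS in the labelled mutants, also without overlap. Without DSS these ratios were higher in the labelled mutants than in wild-type, again without overlap. Each of these had the same exact permutation p and adjusted p. The level of Cp per kilobase exceeded that of Lcn2 in 11 livers, by 2.87 to 422 times, and in wild-type DSS replicate 2 Lcn2 exceeded Cp by 4.22 times. For each 1000 counts of Hp there were 1.58 to 11.8 counts of Lcn2 in untreated wild-type and 0.487 to 1.43 in untreated RelaΔhepStat3Δhep livers. After DSS there were 8.56, 161 and 23.5 in wild-type and 17.7, 33.2 and 36.3 in the labelled mutants.

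Across the 12 libraries, which share groups and treatment, log2 CPM of Hp and Hpx had a Pearson correlation of 0.98, falling to 0.95 without wild-type DSS replicate 2. Hpx was correlated with Cp at 0.96 and Hp with Cp at 0.94, and without that liver these fell to 0.84 and 0.76. Lcn2 was correlated with Cp at 0.91 and with Hp at 0.82, and without wild-type DSS replicate 2 these were 0.83 and 0.56. These values describe 12 points of which 1 lies far from the rest. By the same measure, the genes nearest to Hp were Itih4 (0.99), Hpx, Serpina10, Itih3 and Stap2. Itih3 and Itih4 encode heavy chains of the inter-alpha-trypsin inhibitor family, and Serpina10 is a plasma protease inhibitor. The genes nearest to Hpx were Tmem176b (0.98), Rpap3, Trf, Hp and Tmem176a. Those nearest to Cp were Tmem176a (0.98), Socs3, Steap4, Tmem176b and Itih3, of which Steap4 encodes a metalloreductase for iron and copper. Lcn2 had Lbp (0.96), Nfkbiz, Tm4sf4, Flot1 and Prg4, where Lbp encodes the plasma protein that binds LPS and Nfkbiz an NF-kB cofactor.

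Because neutrophils also hold Lcn2, 12 neutrophil markers were summed in each liver. The sum was 7.18, 4.25 and 4.98 CPM in untreated wild-type and 10.1, 124 and 5.16 CPM in DSS-treated wild-type livers. It was 2.49, 1.82 and 2.36 CPM in untreated and 31.0, 11.7 and 16.1 CPM in DSS-treated livers labelled RelaΔhepStat3Δhep. S100a9 was the most abundant marker, at 0.248 to 39.2 CPM, and the count of markers at 0 ran from 0 to 8 per library. The granule genes Elane and Camp were at 0 in 8 libraries each and Mpo in 6. In wild-type DSS replicate 2 the Lcn2 and neutrophil sums were both the highest of the 12, and the part of these cells in that value was not tested. In replicate 3 Lcn2 was at 196 CPM while the neutrophil sum lay within the untreated wild-type range. Among the treated labelled mutants, replicate 1 had the highest neutrophil sum and the lowest Lcn2. Between the genotypes the median difference of the markers had the sign of the Lcn2 difference, without and with DSS. Under DSS, however, the sums of the labelled mutants lay above those of wild-type replicates 1 and 3 and below that of replicate 2. Of 9 tested markers, 0 were higher in the labelled mutants than in wild-type without DSS (50.2% of all genes), with a median log2 difference of -2.30 beside -2.74 for Lcn2, and 2 were higher under DSS (49.7% of all genes), with a median of -1.07. In the interaction 7 of the 9 were positive (48.7% of all genes), with a median of 0.95. None of the 9 passed in either comparison of genotypes or in the interaction, and their part in the Lcn2 differences was not tested. All 9 tested neutrophil markers had a positive log2 fold change after DSS in each genotype, as had 52.2% of all genes in wild-type and 49.4% in the labelled mutants. Of the 9, 1 passed the edgeR test, in the labelled mutants, where 4.57% of all genes were called higher. Macrophage markers summed to 301 to 612 CPM in untreated wild-type, 474 to 1029 CPM in DSS-treated wild-type, 370 to 407 CPM in untreated RelaΔhepStat3Δhep and 726 to 1122 CPM in DSS-treated RelaΔhepStat3Δhep livers, with no gene at 0. After DSS in the labelled mutants 8 of the 9 tested macrophage markers were called higher, against 4.57% of all genes, and their part in the Lcn2 level was not tested. With sex read from Xist as a covariate, 4 of all 17652 genes were called in that comparison, so these 8 calls did not all hold. Under DSS all 9 were higher in the labelled mutants than in wild-type (median log2 difference 0.40), as were all 7 endothelial markers (0.41) and all 7 markers of T, NK and B cells (1.33), against 49.7% of all genes, with none called. The T, NK and B cell sum was 5.34 to 8.25 CPM in untreated and 2.50 to 3.39 CPM in DSS-treated wild-type livers, and 3.39 to 3.59 CPM without and 4.70 to 11.2 CPM with DSS in the labelled mutants. The 7 markers had a median log2 fold change after DSS of -1.18 in wild-type and 1.17 in the labelled mutants, with none called in either, whereas Lcn2 was higher on average after DSS in both.

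**Figure D4:**
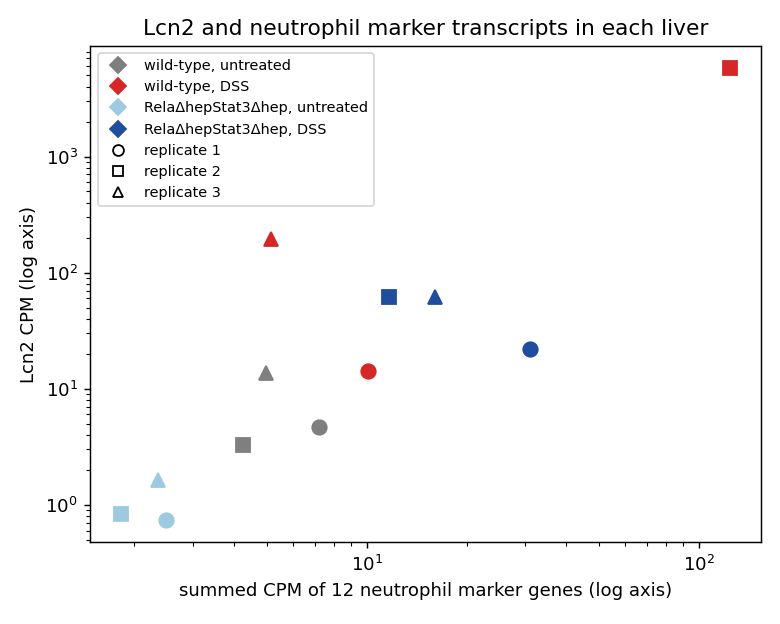
Lcn2 level against the summed level of 12 neutrophil marker genes in each liver, in CPM on log axes. Colours give the group and symbols the replicate. Wild-type DSS replicate 3 has 196 CPM of Lcn2 at a neutrophil sum of 5.16 CPM, which is within the range of untreated wild-type livers.

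The receptors and enzymes that follow haptoglobin and haemopexin were read from a list for haem breakdown and uptake. Cd163, the haptoglobin-haemoglobin receptor, was at 23.1, 17.7 and 19.5 CPM in untreated wild-type and at 7.17, 54.4 and 23.2 CPM after DSS. Livers of the labelled mutants held 16.8 to 18.0 CPM without and 18.6 to 26.9 CPM with DSS, without overlap (log2 fold change 0.37, edgeR adjusted p = 0.716). Lrp1, the haemopexin receptor, was at 1327, 1598 and 1518 CPM without and 1680, 2499 and 2943 CPM with DSS in wild-type (log2 fold change 0.68, edgeR adjusted p = 0.178). In DSS-treated livers labelled RelaΔhepStat3Δhep it was at 988, 1260 and 1395 CPM, below DSS-treated wild-type without overlap (-0.97, adjusted p = 0.0991). Hmox1, which opens the haem ring, was at 12.8 to 18.8 CPM in untreated wild-type and at 16.2, 38.1 and 17.2 CPM after DSS. Hmox1 in the labelled mutants was at 15.5 to 18.0 CPM without and 22.8 to 34.7 CPM with DSS, again without overlap (0.75, adjusted p = 0.141). In the labelled mutants 2 of 11 genes of this list passed after DSS, against 7.02% of all genes, and 5 had an unadjusted p under 0.05 (24.1% of all genes), while in wild-type none passed by edgeR and 3 had an unadjusted p under 0.05 (14.5% of all genes). In this comparison of the labelled mutants the treated livers had high and the untreated livers low Xist, and with sex read from Xist as a covariate none of the pathway genes called here or below passed, although the fitted changes kept their signs. Flvcr2, a member of a family of haem and choline transporters, rose from 1.82 to 2.96 CPM without DSS to 6.26 to 9.29 CPM with it (log2 fold change 1.59, adjusted p = 0.00836), and the biliverdin reductase Blvra rose by 0.63 (adjusted p = 0.0224). Of 9 genes of haem synthesis, 1 passed there, against 7.02% of all genes, and 7 had an unadjusted p under 0.05 (24.1% of all genes), of which 6 were lower. Erythroid markers, whose cells also make haem, had a median sum of 118 CPM in untreated and 23.7 CPM in DSS-treated livers of the labelled mutants, with overlap, and their part in these values was not tested. In wild-type 1 of the 9 had an unadjusted p under 0.05 (14.5% of all genes). Alas1, the rate-limiting enzyme, fell from 693 to 840 CPM without DSS to 93.5 to 295 CPM with it (log2 fold change -1.97, adjusted p = 0.00970). In wild-type it was at 208 to 312 CPM without and 90.2 to 176 CPM with DSS, also without overlap (adjusted p = 0.205), and the untreated labelled mutants were 1.46 above untreated wild-type on the log2 scale (adjusted p = 0.153).

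Among 15 genes of iron uptake, storage and export, 1 passed in wild-type, against 0.685% of all genes, and 2 in the labelled mutants, against 7.02%. An unadjusted p under 0.05 was found for 6 in wild-type and 2 in the labelled mutants (14.5% and 24.1% of all genes). Tfrc, the transferrin receptor, fell from 190, 117 and 161 CPM to 47.8, 67.1 and 30.4 CPM after DSS (log2 fold change -1.69, SE 0.33, edgeR adjusted p = 0.0393). In the labelled mutants it was at 41.6, 44.6 and 74.7 CPM without DSS and at 92.4, 58.0 and 101 CPM with it, and the interaction was 2.33 (adjusted p = 0.0536). With the sex covariate the wild-type change of Tfrc was -1.66 and did not pass (adjusted p = 0.114). Trf, the plasma transferrin that Cp helps to load, was at 16273, 22471 and 16579 CPM in untreated and 17744, 60711 and 27065 CPM in DSS-treated wild-type livers, with its highest value in the same liver as the 4 members (0.93, adjusted p = 0.269). The zinc and iron importer Slc39a14 was at 230 to 273 CPM without DSS and at 237, 794 and 422 CPM with it in wild-type, against 124 to 217 CPM in DSS-treated RelaΔhepStat3Δhep livers. After DSS in the labelled mutants, the metal importer Slc39a8 rose by 0.71 on the log2 scale (adjusted p = 0.0307). Aco1, an iron-responsive RNA-binding protein, fell by 0.66 (adjusted p = 0.0380). None of the 14 tested genes of hepcidin control passed in either genotype by edgeR, and 3 had an unadjusted p under 0.05 in wild-type (14.5% of all genes) and 6 in the labelled mutants (24.1% of all genes). Smad1 (0.36) and Bmp6 (-0.65) had the smallest p in wild-type, and Bmpr1a (0.44) and Atoh8 (-0.77) in the labelled mutants. Hamp and Hamp2, which encode hepcidins, are not analysed here.

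Copper handling held 10 tested genes, and none passed in either genotype by edgeR, with an unadjusted p under 0.05 for 5 in wild-type and 2 in the labelled mutants, against 14.5% and 24.1% of all genes. Mt1, a metallothionein that binds zinc and copper, was at 38.3, 26.2 and 32.7 CPM in untreated wild-type and at 48.9, 2851 and 294 CPM after DSS (log2 fold change 5.04, SE 1.29, edgeR adjusted p = 0.117). Its order among the treated livers was that of the 4 members. In the labelled mutants Mt1 was at 15.8, 61.6 and 52.3 CPM without DSS and at 112, 97.2 and 135 CPM with it. Atp7b, the pump that loads copper into ceruloplasmin, was at 67.1, 54.7 and 61.0 CPM in DSS-treated wild-type and at 36.1, 44.6 and 45.2 CPM in DSS-treated livers labelled RelaΔhepStat3Δhep, without overlap (-0.54, adjusted p = 0.114). Of 4 genes for siderophores and lipocalin partners, Bdh2, an enzyme of mammalian siderophore synthesis, fell after DSS in the labelled mutants, from 11.0 to 12.7 CPM to 4.07 to 5.19 CPM (-1.39, adjusted p = 0.00714). In wild-type its log2 fold change was -0.70 (adjusted p = 0.188). This was 1 of the 4 genes, against 7.02% of all genes. In each genotype 2 of 4 had an unadjusted p under 0.05, against 14.5% of all genes in wild-type and 24.1% in the labelled mutants. Mmp9, whose protein binds lipocalin-2, was at 5.27 CPM in wild-type DSS replicate 2 and at or under 1.40 CPM in the other 11 livers.

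The cytokine pathways upstream of these genes were represented by 12 tested genes for IL-6 and STAT3 and 12 for IL-1 and NF-kB, and 0 of them passed in wild-type by edgeR, where 16 of the 24 had an unadjusted p under 0.05, against 14.5% of all genes. Socs3, a feedback inhibitor of STAT3 signalling, was at 5.56, 5.03 and 5.69 CPM without DSS and at 8.47, 69.9 and 26.1 CPM with it, in the same order of livers as the members (log2 fold change 2.68, edgeR adjusted p = 0.0749). Socs3 in the labelled mutants was at 5.01 to 7.42 CPM without and 8.43 to 12.2 CPM with DSS. The IL-6 co-receptor Il6st had a log2 fold change of 0.69 in wild-type (adjusted p = 0.0804), and the NF-kB inhibitor Tnfaip3 one of 1.46 (adjusted p = 0.129). Il1r1, the IL-1 receptor, was at 37.2, 401 and 116 CPM in DSS-treated wild-type and at 25.3, 27.6 and 33.9 CPM in DSS-treated livers labelled RelaΔhepStat3Δhep (-2.67, adjusted p = 0.130). In the labelled mutants 4 of the 24 genes passed after DSS, against 7.02% of all genes, and 10 had an unadjusted p under 0.05, against 24.1%. Il6 itself had 0, 6 and 0 counts in untreated and 31, 29 and 15 counts in DSS-treated wild-type livers (adjusted p = 0.173). Il6 in the labelled mutants had 0 counts in each untreated liver and 30, 27 and 10 counts after DSS, at least 7.33-fold higher when 3 counts per untreated library are taken as the floor (adjusted p = 0.0262). Il1b rose by 1.54 (adjusted p = 0.0179) and the kinase Tyk2 by 0.55 (adjusted p = 0.0150), and the receptor chain Il1rap fell by 0.76 (adjusted p = 0.0310). Over the 8 lists, 1 of 87 tested genes passed in wild-type (1.15%, against 0.685% of all genes) and 10 of 87 in the labelled mutants (11.5%, against 7.02%). With the sex covariate 0 of 87 passed in either genotype by edgeR, against 50 and 4 of all 17652 genes, and an unadjusted p under 0.05 was found for 28 in wild-type and 11 in the labelled mutants (12.5% and 11.1% of all genes). The 10 genes called in the labelled mutants had the same sign in that fit, with adjusted p-values of 0.265 to 0.719. There the log2 fold change was -2.29 for Alas1, 0.91 for Blvra and 1.70 for Il1b, each farther from 0 than without the covariate. It was -0.69 for Il1rap, 0.44 for Tyk2, 1.17 for Flvcr2, -0.94 for Bdh2, -0.48 for Aco1 and 0.34 for Slc39a8, each nearer to 0. Without that covariate, an unadjusted p under 0.05 was found for 36 of 87 in wild-type (14.5% of all genes) and 34 of 87 in the labelled mutants (24.1% of all genes). The median log2 fold change over the 87 was 0.14 in wild-type and 0.05 in the labelled mutants, beside 0.02 and -0.01 over all genes. In the comparisons of genotypes and in the interaction, 0 of the 87 passed by edgeR. There 16 had an unadjusted p under 0.05 without DSS, 23 with it and 29 in the interaction, against 11.7%, 14.3% and 16.3% of all genes.

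**Figure D5:**
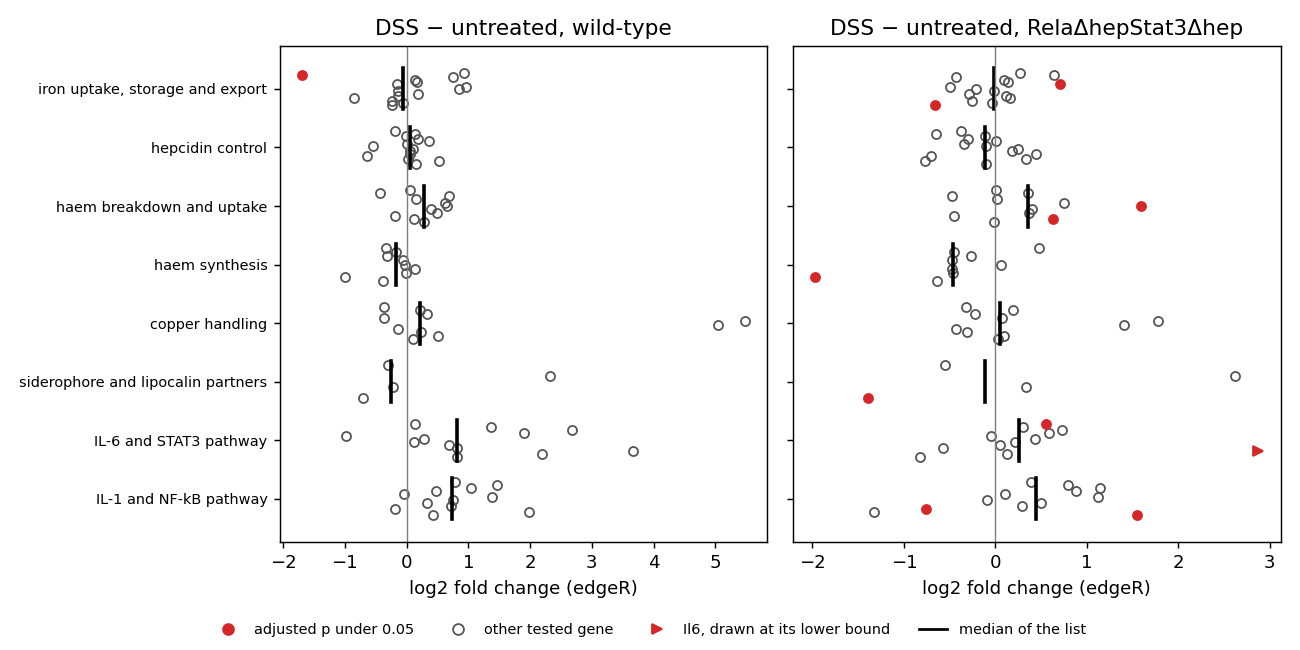
Fitted log2 fold change after DSS of each tested gene in the 8 pathway lists, in wild-type (left) and in mice labelled RelaΔhepStat3Δhep (right), with horizontal axes of different range. Filled red symbols passed an adjusted p of 0.05 in edgeR, bars are list medians, and the triangle draws Il6 at its lower bound. In wild-type Tfrc is the gene that passed, and Mt1 and Mt2 lie farthest to the right without passing.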

How the data were processed

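Total RNA from 12 livers, without its ribosomal RNA, was sequenced in paired-end mode. Per the submitters' processing notes and the study's methods, the authors used fastp, HISAT2 on mm9 and StringTie, and the deposited values are estimated counts per gene, given as whole numbers and not normalized. The annotation release behind the counts and the strand setting are not given in the sources used here. The 12 libraries held 65879529 to 82850098 estimated counts, so counting error is small beside the spread between mice. Groups came from the sample labels. Gene names came from GENCODE vM1, with RefSeq synonyms for list genes that it names otherwise. In edgeR 4.0.16 (R 4.3.3), filterByExpr left 17652 genes, TMM set the library scales, and 1 robust quasi-likelihood model of the 4 groups gave each test, with Benjamini-Hochberg adjustment over all genes tested and a threshold of 0.05. The comparisons were DSS against untreated in each genotype, genotype in each treatment, and the interaction. Two-sided exact permutation tests of a member were run on log2(CPM + 0.5), and those of ratios used log2 of the ratio. Correlations used log2 CPM with a prior count of 2.

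Genes named in the text are the 4 members, the 5 genes most correlated with each, and, of each pathway list, the genes called in a comparison or otherwise those with the smallest p. Cd163, Hmox1, Trf and Mt2, and some comparisons of other list genes, were added for their role after their values were seen. The members, the pathway lists and the marker lists were chosen with earlier results of these data known. Replicates are separate mice per the study, and no pair of libraries within a group was a duplicate. Alternatives were the DESeq2 1.42.0 Wald test, limma 3.58.1 voom with quality weights, DESeq2 size factors, a fit without the filter on low counts, a minimum of 10 counts in each library, a fit to the compared groups alone, a replicate block, a sex covariate (Xist above 100 CPM) and each library left out in turn. The edgeR fit was tested on simulated counts with the same dispersion for every gene and no outlying liver, unlike these data. The simulation did not cover the other steps. Hamp, Hamp2, Commd1, Cox17 and Sco2 were not analysed here.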

Additional observations from a re-analysis of the deposited data

How the results depend on the processing

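For the 4 genes in 5 comparisons, 275 of 300 values under the alternatives kept their direction and their side of the threshold, 17 came past it and 8 changed sign. With the DESeq2 Wald test, DSS in wild-type passed for Hp (3.31), Hpx (2.68), Cp (1.49) and Lcn2 (8.09), DSS in the labelled mutants for Lcn2 (5.46), and genotype under DSS for Hp (-3.25), Hpx (-2.37) and Lcn2 (-5.36). In each comparison DESeq2 called the most genes of the alternatives that kept every library, and its count is the upper end of the range given below. With only the groups compared, Lcn2 after DSS in the labelled mutants passed (5.47). By limma-voom no member passed in any comparison, each DSS effect in wild-type and each genotype difference under DSS was nearer to 0, and the Lcn2 interaction was 1.19. That interaction was also positive, 1.62, without wild-type DSS replicate 2. Cp between untreated genotypes was -0.0055 with sex as a covariate. The cause was not tested.

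Leaving out 1 library at a time, log2 fold changes for DSS in wild-type ran from 1.70 to 3.85 (Hp), 0.99 to 3.19 (Hpx), 0.78 to 1.82 (Cp) and 3.86 to 8.96 (Lcn2). In the labelled mutants they ran from 0.04 to 0.35 (Hp), 0.42 to 0.63 (Hpx), 0.40 to 0.58 (Cp) and 5.28 to 5.93 (Lcn2). Between untreated genotypes they ran from -0.28 to 0.18 (Hp), -0.35 to 0.027 (Hpx), -0.10 to 0.080 (Cp) and -3.17 to -1.89 (Lcn2), so the sign changed for Hp (0.18 and 0.025), Hpx (0.027) and Cp (-0.0065 and -0.10). Under DSS they ran from -3.78 to -1.64 (Hp), -2.88 to -0.69 (Hpx), -1.34 to -0.31 (Cp) and -5.93 to -1.11 (Lcn2), and for the interaction from -3.67 to -1.54 (Hp), -2.65 to -0.47 (Hpx), -1.35 to -0.33 (Cp) and -3.46 to 1.62 (Lcn2).

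The labels do not say whether replicate numbers pair the mice, and the model assumed no pairing. Over 18 pairs of same-numbered libraries, deviations from the group means correlated at -0.09 to 0.17, and 1 pair was above 0.1. With so few libraries in a group, these values cannot exclude pairing. With the replicate block, DSS in wild-type was 2.86 for Hp, 2.24 for Hpx, 1.39 for Cp and 6.85 for Lcn2, and no call on a member changed. The block moved the count of genes called from 11 to 33 between untreated genotypes and from 72 to 128 in the interaction.

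Over all alternatives that kept every library, the count of genes called ran from 21 to 840 for DSS in wild-type (121 in the model of all groups), from 4 to 2315 for DSS in the labelled mutants (1240), from 2 to 334 between untreated genotypes (11), from 5 to 584 under DSS (59) and from 4 to 699 for the interaction (72). Leaving out 1 library gave 35 to 209, 241 to 838, 2 to 9, 11 to 392 and 21 to 220. The counts of 209, 392 and 220 came without wild-type DSS replicate 1. The lowest counts in the labelled mutants after DSS (4), between untreated genotypes (2), under DSS (5) and in the interaction (4) came with sex read from Xist as a covariate. With that covariate, which was applied to the pathway lists after seeing the data, 0 of the 11 pathway calls passed, errors of the members were 1.06 to 1.92 times as large and no member passed. After DSS in the labelled mutants Hp moved to 0.75, Hpx to 0.89 and Lcn2 to 3.72, under DSS Lcn2 moved to -7.13, and the Lcn2 interaction moved to -5.24. Depth did not limit Hp, Hpx or Cp, and the lowest Lcn2 value rested on 56 counts. With 3 mice in a group, 1 liver could decide a call.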
